A study of Mus musculus with 2 samples.

Results

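Genes of the Six-Eya network encode a set of partner proteins first known from eye development in the fruit fly, where the founding genes are sine oculis and eyes absent. A Six-family protein binds DNA through a homeodomain beside a domain that contacts other proteins. An Eya protein does not bind DNA itself but is brought to it by certain Six-family proteins, activates transcription there, and carries a phosphatase domain. In the mouse head these genes act in sensory placodes, eye, ventral forebrain, muscle precursors, mesenchyme and Rathke's pouch, the oral ectoderm that becomes the anterior pituitary. The genes examined here were taken by name through GENCODE symbols and are 9 of the 55401 genes in the tables: the 5 Six-family genes Six2, Six3, Six4, Six5 and Six6, and the 4 Eya genes Eya1, Eya2, Eya3 and Eya4. The rule goes by name and holds no threshold on measured values.

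The samples were pituitaries of Dyrk2-/- mouse embryos (labelled Dyrk2-KO, lacking the protein kinase Dyrk2) and of wild-type (WT) embryos, both at E12.5, the embryonic day in the labels. There was 1 polyA-selected, stranded RNA sequencing library per genotype, from total RNA. The sources used here do not give strain, sex or the number of embryos pooled in a library. The tables hold FPKM, the fragments of a gene per kilobase of its exons and relative to all fragments counted, and correspond to 20115135 counted fragments in the knockout and 20046138 in the wild-type library.

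Since each genotype has 1 library, differences stand without replicates and without p-values. All intervals are 95% intervals of counting error, exact Poisson for a level and exact Clopper-Pearson for a ratio, and leave out the spread between embryos, dissections and preparations. Dyrk2 was at 1.93 FPKM in the knockout and 11.5 FPKM in the wild-type library. All 8 markers of pituitary epithelium, the labelled tissue, were above 1 FPKM in both libraries, with Pitx1 at 227 FPKM in the knockout and 250 FPKM in the wild-type library. The libraries also differed in sex makeup, with Xist at 14.8 FPKM in the knockout and 74.98 FPKM in the wild-type library and Ddx3y at 14.95 FPKM in the knockout and 5.83 FPKM in the wild-type library; the part of this in the values below was not tested. In tissue RNA, fewer cells of a type and less RNA per cell cannot be told apart.

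All 9 genes were above the filter of 1 FPKM in both libraries. Relative to wild type, 2 of the 9 (Six2 and Eya2) were higher by at least 1.5-fold in the knockout library after 0.5 FPKM was added to both values, and 0 were lower by that much. Over all 14000 genes with at least 1 FPKM in either library, 2.06% were that much higher and 4.56% that much lower. The counting interval of the ratio lay wholly above 1 for 5 members (17.7% of all genes) and wholly below 1 for 3 (22.3% of all genes), and held 1 for Eya3 alone. Whether such an interval excludes 1 depends on the number of fragments as well as on the ratio. Most members were counted with many fragments, and the shares of all genes include genes with far fewer. The member counts and these shares are therefore not like for like. The median log2 ratio was 0.23 over the 9 members, against -0.02 over all genes compared. The families differed in makeup of directions: 2 Six-family genes had intervals above 1 and 3 below, while 3 of the 4 Eya genes had intervals above 1.

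**Figure D1:**
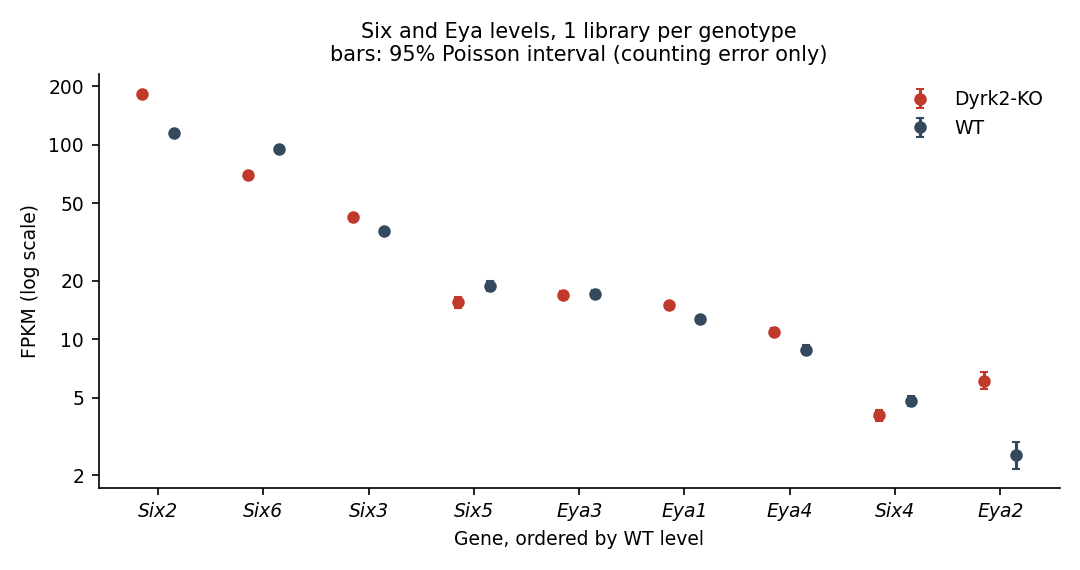
FPKM of the 9 genes on a log axis, ordered by wild-type level, with the knockout library to the left of the wild-type library for each gene; bars are 95% Poisson intervals. Six2 and Eya2 lie higher in the knockout library, Six6 lies lower, and the Eya3 points are level.

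**Figure D2:**
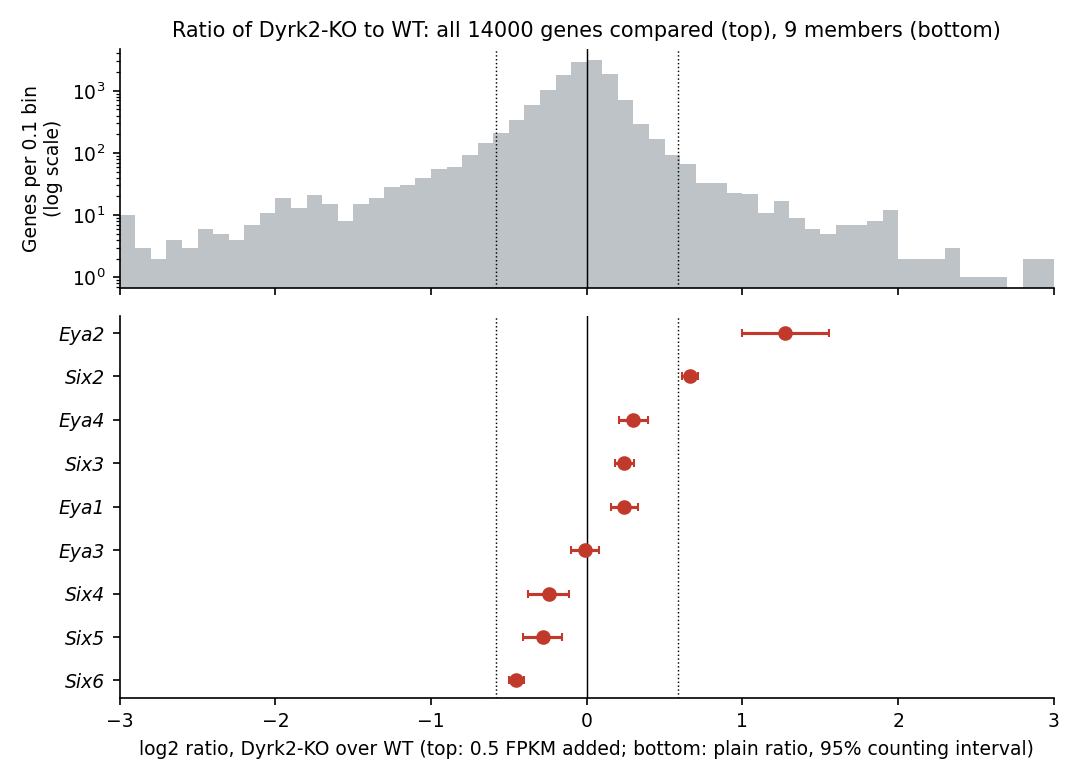
Top, number of genes per bin of log2 ratio (knockout over wild type, 0.5 FPKM added) among the 14000 compared, with values beyond 3 in the outermost bins; bottom, plain log2 ratios of the 9 members with 95% counting intervals. Dotted lines mark 1.5-fold: Eya2 and Six2 lie beyond the upper line and no member lies beyond the lower one.

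Six2, best known for holding nephron progenitors in an undifferentiated state and also active in skull base and facial mesenchyme, was the most abundant of the 9 in both libraries. It was counted with 7763 fragments in the knockout and 4891 in the wild-type library, or 182 FPKM (178 to 186) against 115 FPKM (112 to 118). The intervals were far apart, and the ratio was 1.58 (1.53 to 1.64), a log2 ratio of 0.66 with 0.5 FPKM added. Its surplus of 67.0 FPKM was the largest difference in level among the 9, and its log2 ratio ranked 232 from the top among the 14000 genes. In GRCm38, Six2 (ENSMUSG00000024134) occupies chromosome 17 from 85684277 to 85688274, minus strand.

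Six3, a forebrain and eye determinant that represses Wnt signalling in the anterior neural plate, lies 55.0 kb to the left of Six2 on the same chromosome, on the plus strand from 85613608 to 85629302. Six3 (ENSMUSG00000038805) measured 42.5 FPKM (41.2 to 43.7) in the knockout and 35.9 FPKM (34.8 to 37.1) in the wild-type library. It was higher in the knockout library as well, but by less, with a ratio of 1.18 (1.13 to 1.23). Six2 was 4.29 times the level of Six3 (4.14 to 4.45) in the knockout library and 3.20 times (3.07 to 3.34) in the wild-type library.

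Six6, the closest relative of Six3, is required for eye and pituitary growth and was shown in mouse to repress the cell cycle inhibitor gene Cdkn1b together with Dach proteins. It was the only one of the 3 abundant Six-family genes examined here that was lower in the knockout library. Six6 measured 69.7 FPKM (67.9 to 71.5) in the knockout and 95.3 FPKM (93.2 to 97.4) in the wild-type library, from 5619 fragments in the knockout and 7657 in the wild-type library. The ratio was 0.731 (0.706 to 0.757), the lowest of the 9, and its log2 ratio of -0.45 ranked 13015 of 14000 from the top. Six6 (ENSMUSG00000021099) lies on the plus strand of chromosome 12 from 72939892 to 72944899. Six2 stood at 2.61 times the level of Six6 (2.53 to 2.71) in the knockout library and at 1.21 times (1.17 to 1.25) in the wild-type library, and Six6 at 1.64 times that of Six3 (1.58 to 1.71) in the knockout and 2.65 times (2.55 to 2.76) in the wild-type library.

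The bases just before the RefSeq start sites of these 3 genes are shown because the 2 neighbours on chromosome 17 were both higher in the knockout library and the third gene was lower. Each run covers 250 bases, 5′ to 3′ on the gene's strand, and ends at the base before the start site (RefSeq, GRCm38.p6). They are chr17:85688255-85688504 on the minus strand for Six2, chr17:85620584-85620833 on the plus strand for Six3 and chr12:72939632-72939881 on the plus strand for Six6. Capitals mark CCAAT, the box bound by the factor NF-Y, or its reverse complement ATTGG.
Six2: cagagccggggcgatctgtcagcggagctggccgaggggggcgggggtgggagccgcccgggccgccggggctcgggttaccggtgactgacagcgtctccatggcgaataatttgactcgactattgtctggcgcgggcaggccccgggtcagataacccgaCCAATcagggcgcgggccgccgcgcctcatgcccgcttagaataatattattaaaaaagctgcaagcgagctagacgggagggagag
Six3: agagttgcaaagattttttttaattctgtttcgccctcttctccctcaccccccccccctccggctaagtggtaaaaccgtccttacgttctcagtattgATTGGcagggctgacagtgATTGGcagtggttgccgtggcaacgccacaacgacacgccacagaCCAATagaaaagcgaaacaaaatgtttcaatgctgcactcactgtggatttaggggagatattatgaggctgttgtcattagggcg
Six6: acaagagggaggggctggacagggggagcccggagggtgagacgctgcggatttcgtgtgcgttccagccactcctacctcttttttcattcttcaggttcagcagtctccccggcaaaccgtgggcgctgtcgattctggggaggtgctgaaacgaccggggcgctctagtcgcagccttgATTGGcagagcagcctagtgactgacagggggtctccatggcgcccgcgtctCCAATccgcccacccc

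Six2 holds 1 such box, whose first base is 87 bases before the start, Six3 holds 3 (150, 131 and 86 bases before) and Six6 holds 2 (68 and 16 bases before). A CCAAT box on either strand occurs in 33.8% of the 32851 windows of this length in the RefSeq table, so its presence alone is common. Of the 9 members, 7 were matched to this table, with 9 windows, and 4 of these held it, the other one being a window of Six4. TCAGGTT, the core of the MEF3 element bound by Six-family proteins, was found in 3.49% of all windows and in 1 window each of Six6 (157 bases before the start) and Six4. TGATAC, the core of the Six-type homeodomain site (4.64% of all windows), and GACCACCCA, the site of the Gli factors of Hedgehog signalling (0.225%), were in none of the 9 windows on either strand. The motifs do not overlap one another in these windows. Matches are descriptions of sequence, not of binding.

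Six4 and Six5 were less abundant and both lower in the knockout library by less than 1.5-fold. Six4, which acts in muscle and sensory precursors, measured 4.06 FPKM (3.799 to 4.34) in the knockout and 4.81 FPKM (4.52 to 5.11) in the wild-type library, a ratio of 0.844 (0.771 to 0.924). Six5, the neighbour of the myotonic dystrophy kinase gene Dmpk, measured 15.5 FPKM (14.5 to 16.5) in the knockout and 18.9 FPKM (17.8 to 19.99) in the wild-type library, a ratio of 0.822 (0.753 to 0.897). For both genes the intervals of the 2 libraries did not overlap. Their log2 ratios ranked 11471 (Six4) and 12054 (Six5) of 14000 from the top. Six4 (ENSMUSG00000034460) occupies chromosome 12 from 73099609 to 73113456, minus strand, and Six5 (ENSMUSG00000040841) chromosome 7 from 19094594 to 19098549, plus strand.

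Eya2, an activator of muscle and placode precursors, was the member furthest from equality. It was counted with 366 fragments in the knockout and 151 in the wild-type library, or 6.14 FPKM (5.53 to 6.80) in the knockout and 2.54 FPKM (2.15 to 2.98) in the wild-type library. The ratio was 2.42 (1.99 to 2.94) and the log2 ratio with 0.5 FPKM added was 1.13, ranked 93 from the top of 14000. Over all genes, 0.857% were 2-fold or more above wild type and 1.89% 2-fold or more below it, and Eya2 was the only member in the first set and none was in the second; the lower end of its interval lies just under that mark, and with 2 FPKM added in place of 0.5 its log2 ratio was 0.84, under 2-fold. Eya2 was the least abundant of the 9 in the wild-type library and second from last in the knockout library, above Six4. It lies on the plus strand of chromosome 2 from 165595032 to 165771727 (ENSMUSG00000017897).

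The other Eya genes were closer to level. Eya1, required for ear, kidney and cranial ganglion formation, measured 14.96 FPKM (14.4 to 15.6) in the knockout and 12.7 FPKM (12.1 to 13.2) in the wild-type library, a ratio of 1.18 (1.11 to 1.26). Eya4, whose human form is linked to late-onset deafness and heart muscle disease, measured 10.9 FPKM (10.4 to 11.4) in the knockout and 8.86 FPKM (8.44 to 9.30) in the wild-type library, a ratio of 1.23 (1.15 to 1.31). Neither reached 1.5-fold. Eya3, known in sheep and mice for its seasonal induction by long days in the pars tuberalis of the pituitary, measured 17.0 FPKM (16.2 to 17.7) in the knockout and 17.1 FPKM (16.3 to 17.9) in the wild-type library. Its ratio was 0.992 (0.930 to 1.06). Eya1 (ENSMUSG00000025932) occupies chromosome 1 from 14168954 to 14310235, minus strand. Eya3 (ENSMUSG00000028886) occupies chromosome 4 from 132638987 to 132724765, plus strand, and Eya4 (ENSMUSG00000010461) chromosome 10 from 23102963 to 23350786, minus strand. The 4 Eya genes span 85.8 to 248 kb, whereas the 5 Six-family genes span 3.96 to 15.7 kb.

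Set in order of level per length, the knockout library read Six2, Six6, Six3, Eya3, Six5, Eya1, Eya4, Eya2 and Six4, and the wild-type library Six2, Six6, Six3, Six5, Eya3, Eya1, Eya4, Six4 and Eya2. The counting intervals of neighbours overlapped for Eya3 with Six5 and Six5 with Eya1 in the knockout library, and for Six5 with Eya3 in the wild-type library; all other neighbours were apart. The exchange of Eya2 and Six4 therefore involved neighbours whose intervals were apart in both libraries, and that of Six5 and Eya3 did not. Six2 stood above 98.9% of the 14000 genes in the knockout and 98.0% in the wild-type library. Six6 stood above 95.9% in the knockout and 97.4% in the wild-type library, and Eya2 above 44.7% in the knockout and 19.96% in the wild-type library.

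The summed level of the 5 Six-family genes was 314 FPKM in the knockout and 270 FPKM in the wild-type library, and that of the 4 Eya genes 49.0 FPKM in the knockout and 41.2 FPKM in the wild-type library. These sums were higher in the knockout library by similar factors, 1.16 for the Six-family genes and 1.19 for the Eya genes, but their makeup differed. Six2 took 58.0% of the Six-family sum in the knockout and 42.6% in the wild-type library, and Six6 took 22.2% in the knockout and 35.3% in the wild-type library. Six3 held nearly the same share, at 13.5% in the knockout and 13.3% in the wild-type library. Among Eya genes, Eya2 took 12.54% in the knockout and 6.17% in the wild-type library, and Eya3 took 34.6% in the knockout and 41.5% in the wild-type library. The shares of Eya1 (knockout 30.6%, wild type 30.8%) and Eya4 (knockout 22.3%, wild type 21.5%) differed by under 1 percentage point.

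**Figure D3:**
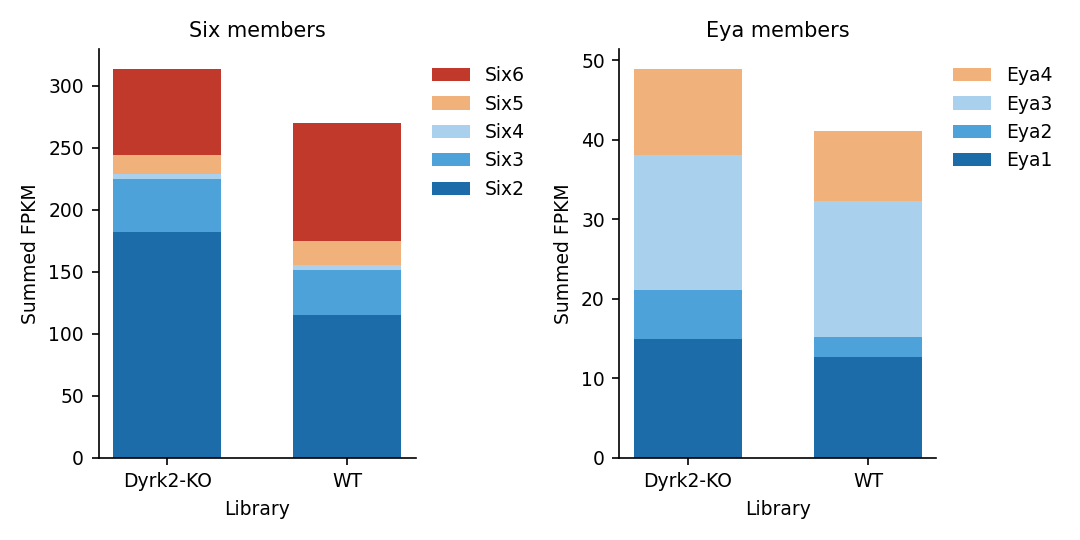
Summed FPKM of the 5 Six-family genes (left) and the 4 Eya genes (right) in the knockout and wild-type libraries, stacked by gene. The Six2 block takes 58.0% of the knockout column and 42.6% of the wild-type column.

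Of the 14 other genes annotated within 150 kb of Six2, 5 had at least 30 fragments in a library. All 5 had ratios above 1, with intervals wholly above 1 for 4 of them, against 17.7% of all genes compared. Six3 among them is itself a member, and Six3os1 and Gm28528 overlap its annotated extent, so the 5 are not separate neighbours. Such intervals also depend on fragment number, which differs among the genes behind the 17.7%. The other 9 had at most 10 fragments in either library: 2 were higher and 5 lower in the knockout library, 2 were at 0 in both, and all 9 intervals held 1. The nearest annotated gene beyond its start is AC166821.1, a long non-coding RNA that begins 5.36 kb away and runs in the opposite direction. It measured 11.85 FPKM in the knockout and 6.56 FPKM in the wild-type library, a ratio of 1.81 (1.54 to 2.12). On the far side of Six3, Six3os1, a non-coding transcript of the opposite strand that overlaps the annotated extent of Six3 by 4791 bases, measured 47.65 FPKM in the knockout and 42.0 FPKM in the wild-type library, a ratio of 1.14 (1.10 to 1.17). Gm29418, a further non-coding RNA whose near end is 108 kb from the start of Six2, measured 4.99 FPKM from 65 fragments in the knockout and 2.39 FPKM from 31 fragments in the wild-type library, a ratio of 2.09 (1.34 to 3.32); it was singled out after its value was seen. The sources used here do not say whether the counting used strand, so fragments of Six3 and Six3os1 cannot be told apart where they overlap.

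**Figure D4:**
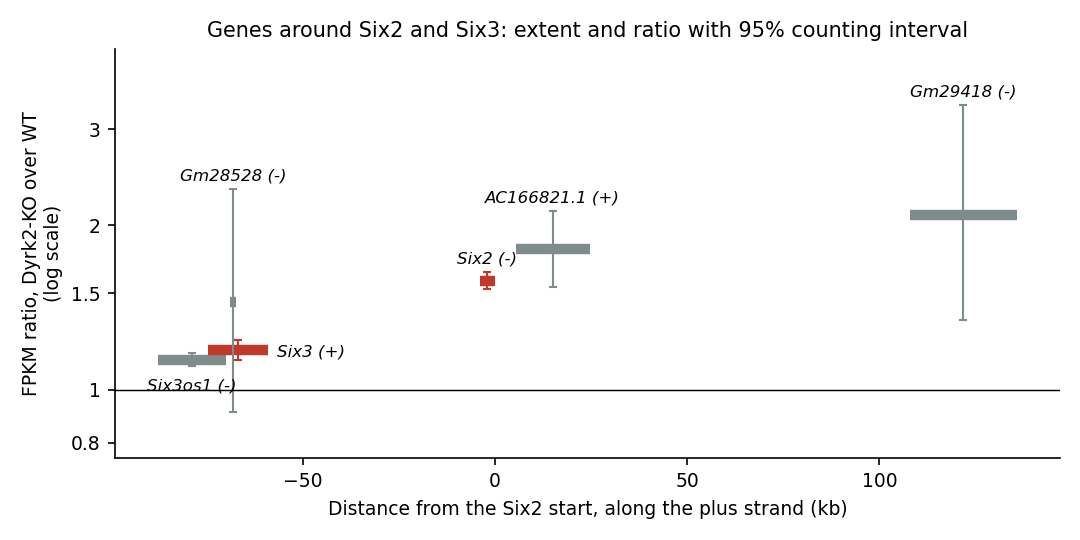
Genes within 150 kb of Six2 with at least 30 fragments in a library, drawn over their extent as distance from the Six2 start, against the FPKM ratio of knockout to wild type on a log axis with 95% counting intervals; coding genes are red. All 6 ratios lie above 1, and the interval of Gm28528 alone holds 1.

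Six6 also shares its locus with a gene whose value differed. 4930447C04Rik, a coding gene of the opposite strand that overlaps Six6 by 883 bases at its start, measured 2.69 FPKM in the knockout and 5.76 FPKM in the wild-type library, a ratio of 0.467 (0.408 to 0.534), lower than that of Six6 itself. It was counted with 324 fragments in the knockout and 691 in the wild-type library, against 5619 and 7657 for Six6. As with Six3 and Six3os1, fragments of these 2 genes cannot be told apart where they overlap. Gm26709, a non-coding RNA 0.908 kb beyond the end of Six6, measured 3.36 FPKM in the knockout and 2.53 FPKM in the wild-type library, and its interval of 0.911 to 1.95 held a ratio of 1. Dmpk, 0.773 kb before Six5, measured 2.20 FPKM in the knockout and 3.13 FPKM in the wild-type library, a ratio of 0.703 (0.582 to 0.849). The coding genes next to Eya2 were not higher in the knockout library: Zmynd8 measured 12.15 FPKM in the knockout and 12.4 FPKM in the wild-type library, and Slc2a10 measured 1.99 FPKM in the knockout and 2.46 FPKM in the wild-type library.

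Proteins that act with Six-family and Eya factors lay near level as a group. Of 27 listed genes, 17 were above 1 FPKM in either library, with a median log2 ratio of 0.01 (-0.02 over all genes). In the knockout library 0 were higher (2.06% of all genes) and 1 lower (4.56% of all genes) by 1.5-fold or more. The exception was Pax1, a paired box factor of pharyngeal pouches and sclerotome, with 0 fragments in the knockout library and 4.32 FPKM from 389 fragments in the wild-type library. With the knockout value set at a floor of 3 fragments, Pax1 was 130-fold lower in the knockout library. The counting interval of its ratio, which includes the counting error of the wild-type value, began at 105-fold lower. Pax9, its close relative, measured 2.92 FPKM in the knockout and 2.04 FPKM in the wild-type library, a ratio of 1.43 (1.19 to 1.72), and Pax6, an eye and forebrain factor chosen after its value was seen, 5.28 FPKM in the knockout and 4.15 FPKM in the wild-type library.

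Of the corepressors, Dach1, which works with Six6, measured 6.64 FPKM in the knockout and 7.66 FPKM in the wild-type library, a ratio of 0.867 (0.794 to 0.945); it too was chosen after its value was seen. Aes, the short Groucho family protein now called Tle5, was the most abundant partner, at 119 FPKM in the knockout and 117 FPKM in the wild-type library. Tle2, a full-length Groucho protein, was the lowest of that family by ratio, at 3.58 FPKM in the knockout and 5.44 FPKM in the wild-type library. Sobp, a Six-binding protein, measured 5.29 FPKM in the knockout and 3.97 FPKM in the wild-type library, a ratio of 1.33 (1.17 to 1.51). The deacetylase gene Hdac1 and its scaffold Sin3a were within 1.1-fold. Of 5 substrates and phosphatase partners of Eya, 4 passed the filter and all 4 were within 1.5-fold, with the histone gene H2afx at 214 FPKM in the knockout and 204 FPKM in the wild-type library and Ppp2r2a, a phosphatase subunit, at 27.5 FPKM in the knockout and 24.9 FPKM in the wild-type library.

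Genes reported in other settings to respond to Six-family or Eya factors were a mixed list of 21, of which 11 passed the filter. Of these, 0 were higher (2.06% of all genes) and 2 lower (4.56% of all genes) by 1.5-fold or more in the knockout library. The median of the 11 log2 ratios was -0.16. The median over all genes was also below 0, at -0.02. The 2 lower genes were Cga, the common alpha subunit of pituitary glycoprotein hormones, at 17.0 FPKM in the knockout and 55.4 FPKM in the wild-type library, and Neurod1, a neurogenic factor, at 0.71 FPKM in the knockout and 3.33 FPKM in the wild-type library. Cdkn1b, chosen after its value was seen, measured 13.5 FPKM in the knockout and 17.9 FPKM in the wild-type library, a ratio of 0.753 (0.699 to 0.811). Ccnd1, which encodes cyclin D1 and promotes entry into the cell cycle, had the highest log2 ratio of the 11 that passed, at 163 FPKM in the knockout and 116 FPKM in the wild-type library, a ratio of 1.40 (1.37 to 1.44). Fgf8, an infundibular and pharyngeal signal, measured 4.57 FPKM in the knockout and 6.54 FPKM in the wild-type library.

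Markers of the cell types that could carry Six-family and Eya transcripts were examined beside them. Six2 is known from skull base and facial mesenchyme, and which cells carried its transcripts here was not tested. Of 22 mesenchyme markers, 21 were above the filter, with a median log2 ratio of -0.43. By 1.5-fold or more, 8 were lower (4.56% of all genes) and 6 higher (2.06% of all genes). The summed level of the 22 was 229 FPKM in the knockout and 340 FPKM in the wild-type library. Tcf21 was at 0 in the knockout library and had 76 fragments in the wild-type library. Among the lower ones were the collagen gene Col1a1, at 16.2 FPKM in the knockout and 42.7 FPKM in the wild-type library, and the forkhead gene Foxf2, at 2.78 FPKM in the knockout and 15.3 FPKM in the wild-type library. Among the 6 higher ones were Alx1, Alx4, Osr1, Osr2 and Prrx1, transcription factors of facial mesenchyme, of which all but Alx1 and Osr2 were singled out after their values were seen. The ratios of these 5 ran from 1.97 (1.39 to 2.84) for Osr1 to 23.8 (15.3 to 38.4) for Alx1, with 2.01 (1.68 to 2.42) for Prrx1. The part of these cells in the Six2 and Eya2 values was not tested.

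Pituitary and hypothalamic markers differed less. The 10 Rathke's pouch factors had a median log2 ratio of -0.12. In the knockout library 0 were higher (2.06% of all genes) and 1 (Lhx4) lower (4.56% of all genes) by 1.5-fold or more. The 8 pituitary epithelium markers summed to 698 FPKM in the knockout and 733 FPKM in the wild-type library, with a median log2 ratio of -0.03, and none was at 0. Hypothalamic and infundibular markers cover the other tissue known to express Six3 and Six6. Of 14 listed, 11 passed the filter and 10 lay within 1.5-fold, with a median of -0.04. In the knockout library 1 (Bmp4) was higher (2.06% of all genes) and 0 lower (4.56% of all genes) by 1.5-fold or more. Bmp4 measured 10.5 FPKM in the knockout and 6.50 FPKM in the wild-type library, a ratio of 1.62 (1.40 to 1.88). The 14 markers summed to 127 FPKM in the knockout and 131 FPKM in the wild-type library. Nkx2-2 was at 0 in the knockout library and had only 1 fragment in the wild-type library. Rax, a retinal and hypothalamic determinant, measured 13.3 FPKM in the knockout and 14.2 FPKM in the wild-type library.

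Skeletal muscle, where Six4, Eya1, Eya2 and Eya4 are also active, was barely represented: 0 of 12 markers reached 1 FPKM in either library, and their sum was 1.87 FPKM in the knockout and 1.07 FPKM in the wild-type library. Of its defining genes, Myf5 and Pax7 were at 0 in both libraries, Myog had 4 fragments in each, and Myod1 had 9 fragments in the knockout and 2 in the wild-type library. The intervals of Des, Actc1 and Myh3 lay wholly above 1, with 64 fragments in the knockout and 41 in the wild-type library for Des, 13 in the knockout and 3 in the wild-type library for Actc1, and 12 in the knockout and 2 in the wild-type library for Myh3; these muscle genes were named after their values were seen. Neuronal markers had a median log2 ratio of 0.16 over 9 of 12 above the filter. Of these 9, 0 were higher (2.06% of all genes) and 2 (Nefm and Isl2) lower (4.56% of all genes) by 1.5-fold or more in the knockout library. Intervals lay wholly above 1 for 6 (17.7% of all genes) and wholly below 1 for 3 (22.3% of all genes). Such intervals also depend on fragment number. Elavl3, at a plain ratio of 1.56 (1.36 to 1.80), fell under 1.5-fold once 0.5 FPKM was added. The neuronal list summed to 92.8 FPKM in the knockout and 108 FPKM in the wild-type library. Placode and epithelial markers, 7 of 11 above the filter, had a median of -0.23. Of these 7, 1 (Gata3) was at least 1.5-fold higher (2.06% of all genes) and 2 (Neurod1 and Tbx1) lower (4.56% of all genes). The list summed to 475 FPKM in the knockout and 531 FPKM in the wild-type library. Epcam, Krt8 and Krt18 made up most of both sums, at 193, 115 and 161 FPKM in the knockout library. In the wild-type library they measured 195, 136 and 191 FPKM. The sums thus describe these epithelial genes more than the placode markers. Of that list the ear gene Oc90 was at 0 in both libraries. Neurog1 had 0 fragments in the knockout and 1 in the wild-type library, and Neurog2 had 1 in the knockout and 0 in the wild-type library. These 3, like Nkx2-2 above, were named for being at 0. A difference of 1 fragment is too small to read in either direction. The part of any of these cell types in the values of the 9 genes was not tested.

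**Figure D5:**
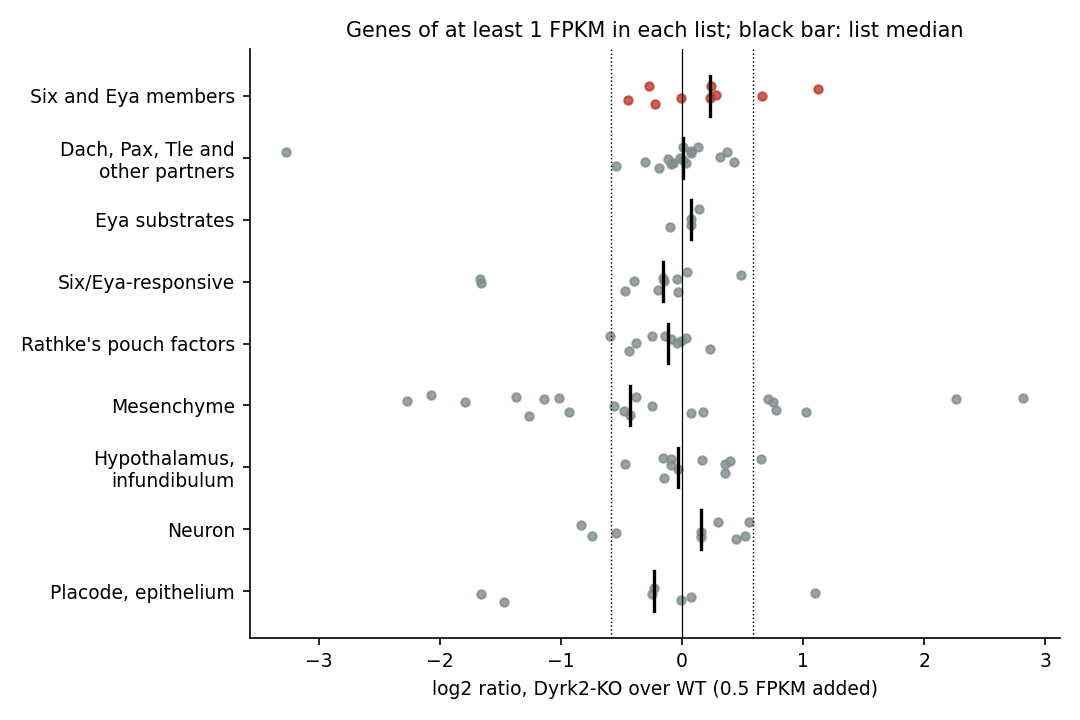
Log2 ratio of knockout to wild type (0.5 FPKM added) for the 9 members (red) and for genes of at least 1 FPKM in either library in the partner, target and marker lists (grey), with list medians as black bars and 1.5-fold as dotted lines. Mesenchyme markers spread widely to both sides of their median of -0.43, and the point furthest left among the partners is Pax1; skeletal muscle, with no gene above 1 FPKM, and pituitary epithelium, most of whose genes are among the pouch factors, are not drawn.

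Among the 126 genes of these lists, those nearest in level to each member of at least 5 FPKM were found by the distance of log2(FPKM + 0.5) over the 2 libraries. With 2 values per gene this describes level only. Ccnd1 was nearest to Six2 by a wide margin, at a distance of 0.16 against 0.61 for the next gene, Aes. Col3a1, at 62.1 FPKM in the knockout and 91.7 FPKM in the wild-type library, was nearest to Six6, at a distance of 0.17. Hdac1 was nearest to Six3 (0.12), Skil to Six5 (0.12), Rax to Eya1 (0.23), Tle3 to Eya3 (0.11) and Sall1 to Eya4 (0.24). Eya2 had no list gene closer than Otp, a hypothalamic factor, at 0.52.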

How the data were processed

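RNA sequencing of pituitaries at E12.5 was used, with 1 Dyrk2-KO and 1 WT library, grouped by the genotype label. The authors deposited, per the file headers, 1 table per library with a gene identifier, the summed exon length and the FPKM to 2 decimals. The submitters' processing notes name cutadapt 1.9.1, HISAT2 2.0.1 and GRCm38; for the counting tool, its use of strand and the annotation release, nothing is given in the sources used here. FPKM are scaled to counted fragments, so abundant transcripts can shift all others.

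Symbols and coordinates came from GENCODE M21 by identifier (55141 of 55401 genes matched). Fragments were recovered from FPKM and exon length: of values with at most 100 fragments, all 1380 (knockout) and 1500 (wild type) checked were whole within 0.1 fragment. They served only for counting intervals and for the floor of 3 fragments. Genes with at least 1 FPKM in either library were compared by log2 of knockout over wild type after adding 0.5 FPKM, which understates changes of low genes; single genes are given as plain ratios. No test was used. The steps were tested on simulated counts. From each list the text names members among the 4 with the highest mean FPKM and the 4 with the largest log2 ratio, and others where said. The 9 genes, the lists and the rules were chosen with earlier results of these data known; the motifs and the member pairs were chosen after the data were examined. Some genes of the lists and 1 gene that neighbours a member are not reported here. Alternatives were pseudocounts of 0.1 and 2 FPKM, a filter of 5 FPKM and none, 2 scalings, and a minimum of 200 bases of exon. Python 3.11.15, numpy 2.4.6, pandas 2.3.3, scipy 1.17.1 and matplotlib 3.10.9 were used.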

Additional observations from a re-analysis of the deposited data

How the results depend on the processing

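No paired analysis was possible because each genotype has 1 library. The count of 2 members at least 1.5-fold higher and 0 lower was the same under the 4 alternatives that can move a member's ratio (2 other pseudocounts and 2 scalings); filters on level or exon length leave the ratios as they are. Of the members' log2 ratios, that of Eya2 alone moved beyond its counting error, to 0.84 with 2 FPKM added, past 1.5-fold but no longer past 2-fold, and it ranged up to 1.24 with 0.1 FPKM added. Six2 ranged from 0.63 to 0.67 and Six6 from -0.48 to -0.43. Eya3 lay on either side of 0, from -0.04 to 0.004. Six4, below 5 FPKM in both libraries, gives no value under that filter. The scalings multiplied the knockout library by 1.01 (trimmed mean) and 0.978 (upper quartile). The background counts depended on weak and short genes. Genes higher by 1.5-fold or more in the knockout library numbered 289, and 132 with 2 FPKM added, 60 with a filter of 5 FPKM and 622 with no filter. Those at least 1.5-fold lower numbered 638, and 301, 178 and 1192 under the same 3 settings. At least 2-fold higher were 120, and 20, 17 and 217, or 60 without genes under 200 bases of exon. At least 2-fold lower were 265, and 83, 69 and 410, or 166 without those short genes. Depth limits Eya2 most, with 151 fragments in the wild-type library.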
